A study of Mus musculus with 4 samples.

Results

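DNA replication and S-phase genes were followed in progenitor-like cells cultured from adult mouse liver, which divide in transition and expansion media. The set was 41 genes named by symbol, and all 41 were present among the 21878 rows of each deposited table. They cover the MCM2-7 helicase (6 genes), origin licensing (5), helicase activation (6), the sliding clamp and its loader (5), polymerases and primase (7), Okazaki fragment maturation (2), nucleotide synthesis (4), E2F factors and E-type cyclins (4) and chromatin assembly (2). The genes were chosen by function. All 41 passed the filter on low counts, with at least 55 counts in every library.

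The series holds 4 RNA-seq libraries, 2 titled HepLPC, progenitor-like cells of hepatocyte origin by title, and 2 of progenitor-like cells derived from non-parenchymal liver cells (NPC_LPC). The cell type label of both HepLPC libraries names hepatocytes and non-parenchymal cells as the source, so it is not settled that these libraries hold cells of hepatocyte origin alone, and each HepLPC value is to be read with that limit. According to the labels all mice were of strain C57BL/6, aged 6 to 8 weeks. The protocol lists tdTomato mice given AAV8-TBG-Cre for the hepatocyte preparation and AlbCreERT/R26GFP mice for the non-parenchymal one, and both preparations were cultured in the same kinds of medium. TBG and Alb are hepatocyte promoters, so in both models the colour marks hepatocytes and their descendants, and the non-parenchymal cells are known by preparation. Read in that order, the mouse model and the virus go with the group, and neither can be told apart from origin. Whether the 2 replicates of a group are separate animals or cultures is not stated, and p-values measure only the spread between these libraries, which may be technical. In bulk RNA, more cells in S phase and more RNA per cell cannot be told apart.

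A cell copies its genome once per division cycle. In G1 phase the origin recognition complex, Cdc6 and Cdt1 load the ring-shaped MCM2-7 helicase onto origins, and geminin later blocks reloading. In S phase Cdc45 and the GINS complex join MCM2-7 to form the working helicase, primase and polymerase alpha start each strand, and polymerases delta and epsilon extend them on the PCNA clamp. Most of these genes are switched on by E2F factors late in G1 phase, and their RNAs are low in resting adult liver, which re-enters the cycle after injury or in culture.

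Total counts ran from 17575998 to 20625957 per library, and values below are CPM (each count relative to its library's total, with the TMM scaling of edgeR) for replicates 1 and 2 of a group, in that order, unless a unit is named. Each difference is given as HepLPC over NPC_LPC, in log2 units, with its standard error (±) from edgeR over 2 libraries a group. The hepatocyte marker list summed to 3729 and 4999.5 CPM in HepLPC, against 2683 and 1522 CPM in NPC_LPC, nearly all of it Apob, while Alb was at or below 2.28 CPM, Ttr at or below 1.52 CPM and Cyp2e1 had no count. Of its 8 genes 5 passed the filter on low counts, and all 5 had a difference above 0, with a median of 4.50. In these 5 the groups did not overlap, with HepLPC higher, against 27.9% of all tested genes. EdgeR called 1 of the list higher, against 0.227% of all genes, and DESeq2 called 4, against 5.35%. A gene near 0 in NPC_LPC passes the filter only by being high in HepLPC, which fixes its direction in advance. These counts and the median are therefore no test of the list. The biliary and progenitor list summed to 5673 and 3409 CPM in HepLPC, against 10345 and 5262 CPM in NPC_LPC, and most of the NPC_LPC sum was Spp1, at 3026 and 905 CPM in HepLPC, against 8944 and 4203 CPM in NPC_LPC. Of the 7 genes of that list 5 had a difference above 0 and 2 below, with a median of 0.44. Sox9 was at 109 and 115 CPM in HepLPC, against 256 and 81.6 CPM in NPC_LPC and Krt19 at 1435 and 885 CPM in HepLPC, against 111 and 275 CPM in NPC_LPC. Markers of other liver cells were near 0: Pecam1 and Adgre1 were at or below 0.0564 CPM, Ptprc at or below 0.248 CPM, Cdh5 at or below 0.545 CPM and Col1a2 at or below 1.39 CPM, and Hbb-bs and Hba-a1 had no count. Col1a1 was at 4.06 and 1.80 CPM in HepLPC, against 2.74 and 11.8 CPM in NPC_LPC. The stellate and fibroblast list summed to 4.89 and 3.16 CPM in HepLPC, against 3.46 and 16.7 CPM in NPC_LPC, the endothelial list to 7.45 and 5.97 CPM in HepLPC, against 2.31 and 3.62 CPM in NPC_LPC, and the erythroid list to at most 0.165 CPM. The leukocyte and Kupffer list summed to 25.2 and 15.3 CPM in HepLPC, against 82.2 and 21.4 CPM in NPC_LPC. It was mostly Cd68 and highest in NPC_LPC replicate 1, the library in which most replication genes were lowest, and its part in the result was not tested.

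Most of the 41 genes were highest in HepLPC replicate 1 and lowest in NPC_LPC replicate 1, with the replicates numbered 2 between them. Their summed level was 4044 and 2899 CPM in HepLPC, against 1659 and 2541 CPM in NPC_LPC, which is 0.402%, 0.293%, 0.169% and 0.249% of all counts in those 4 libraries. The HepLPC libraries lay above both NPC_LPC libraries in sum, and the log2 ratio of the group means was 0.73. That ratio was 0.48 without HepLPC replicate 1 and 0.47 without NPC_LPC replicate 1, against a pooled SD of 0.39 between replicates on the log2 scale. HepLPC replicate 1 was the highest library and NPC_LPC replicate 1 the lowest for 33 of the 41 genes (80.5%), an order that 13.6% of all 12332 tested genes shared. HepLPC replicate 1 exceeded replicate 2 in 37 genes, where 49.4% of all genes did, and NPC_LPC replicate 2 exceeded replicate 1 in 38, where 53.1% did. Between the replicates numbered 2, HepLPC was higher in 24 genes and lower in 17, where it was higher in 6081 of all 12332 tested genes. In 30 of the 41 these 2 libraries lay within 1.5-fold of each other. No share over all genes was computed for that count, so such closeness is not shown to be particular to these genes.

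**Figure D1:**
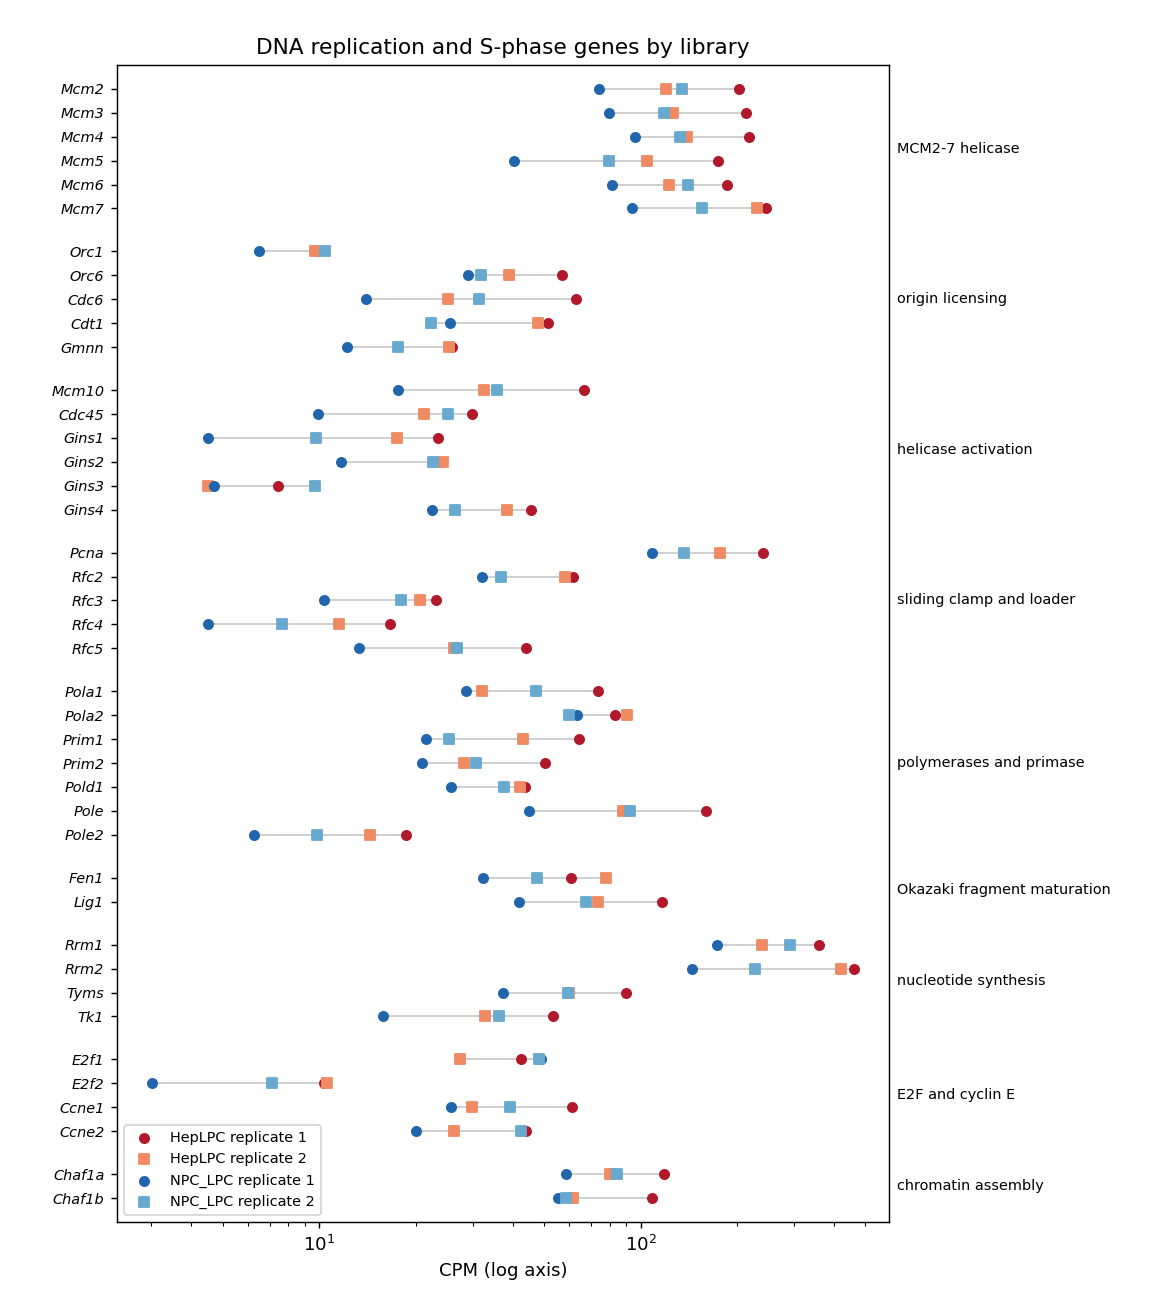
CPM of each of the 41 genes in each library on a log axis, grouped by role, with 1 point per library and a grey line from the lowest to the highest. For most genes HepLPC replicate 1 is at the right end, NPC_LPC replicate 1 at the left end and the replicates numbered 2 lie between them. E2f1 is the gene with both NPC_LPC libraries at the right.

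No replication gene passed the edgeR quasi-likelihood test over all genes. With edgeR, 39 of the 41 genes had a log2 fold change above 0, against 49.8% of all tested genes, and the median was 0.73, against -0.0030 for all genes. The groups did not overlap, with HepLPC higher, in 24 genes (58.5%), against 27.9% of all genes. They did not overlap with HepLPC lower in 1 gene, against 28.6%, and overlapped in the other 16. The count with HepLPC higher was also 24 without HepLPC replicate 1 or without NPC_LPC replicate 1. It was 38 without HepLPC replicate 2 and 39 without NPC_LPC replicate 2. In all of these 1 library against 2 separates more easily, and leaving out a library can hardly lower the count. These counts are therefore no check on single libraries. No share over all genes is set beside the counts with 1 library left out. At an adjusted threshold of 0.05, edgeR called 0.43% of all genes (0.227% higher and 0.203% lower in HepLPC) and 0 of the 41, and the smallest adjusted p among them was 0.109. At an unadjusted p under 0.05 edgeR had 12 of the 41 (29.3%), against 21.9% of all genes. DESeq2 called 11.6% of its tested genes, 5.35% higher and 6.24% lower in HepLPC, and 4 of the 41 (9.76%) were among those higher. Limma-voom called 0.0405% of all genes and 0 of the 41. The 4 genes that DESeq2 called were Rrm2, Cdt1, Prim1 and Gins1. In each of them both HepLPC libraries lay above both NPC_LPC libraries.

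**Figure D2:**
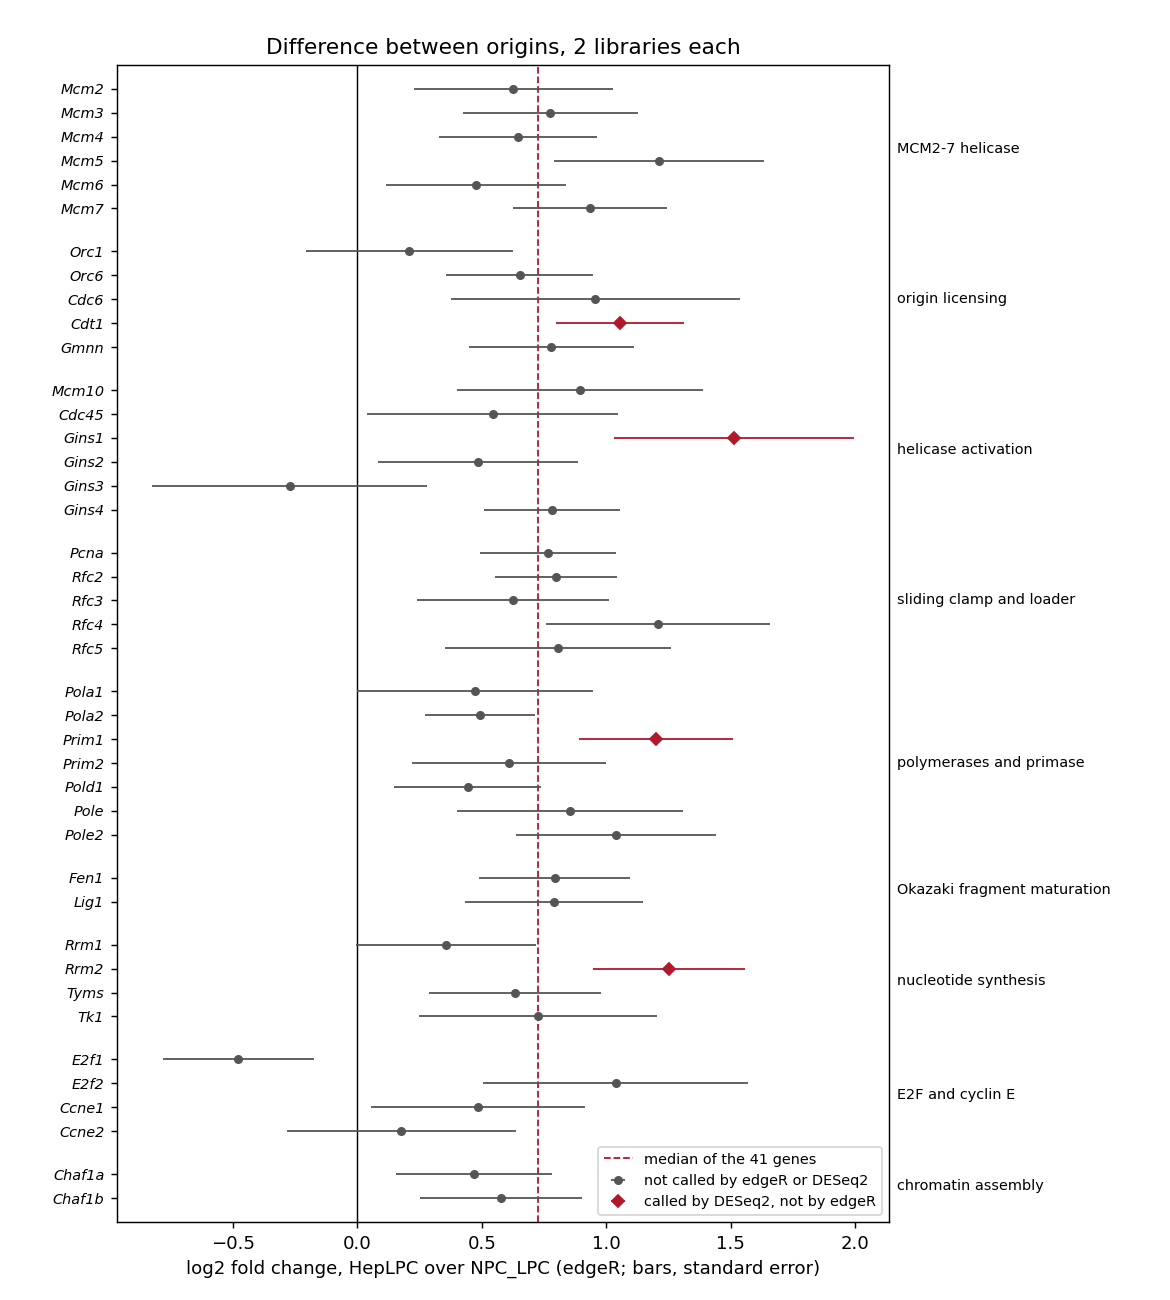
Log2 fold change of each gene, HepLPC over NPC_LPC, from edgeR, with its standard error as the bar, grouped by role. The dashed line marks the median of 0.73; Rrm2, Cdt1, Prim1 and Gins1 are the genes that DESeq2 called, and E2f1 and Gins3 lie below 0.

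Promoter windows from RefSeq (250 bases before to 50 after a start, build GRCm38.p6) were found for 32 of the 41 genes. They were searched on both strands for the E2F core, in its 4 forms. These forms are spelled TTCCCGC in the first, TTCGCGC in the second, TTGCCGC in the third and TTGGCGC in the fourth. Some matches overlap, since TTGGCGC on 1 strand and TTCGCGC on the other share bases. At least 1 match lay in 21 of the 32 windows (65.6%), against 14% of the 16275 genes of the tables with a window and 4 of 26 genes of a mitosis list (15.4%). The CHR element, spelled TTTGAA or else spelled TTCGAA, is typical of genes switched on in G2 phase. It was in 7 of the 32 (21.9%), in 20 of the 26 mitosis genes (76.9%) and in 19.6% of genes of the tables. The CCAAT box was in 56.2% of the replication genes, 76.9% of the mitosis genes and 42.3% of genes of the tables. The 21 genes with an E2F match had a median log2 fold change of 0.79, between -0.27 and 1.25, and the 11 without had 0.63, between -0.48 and 0.90. Those ranges overlap, and a match describes letters in a window and not a bound site.

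**Figure D3:**
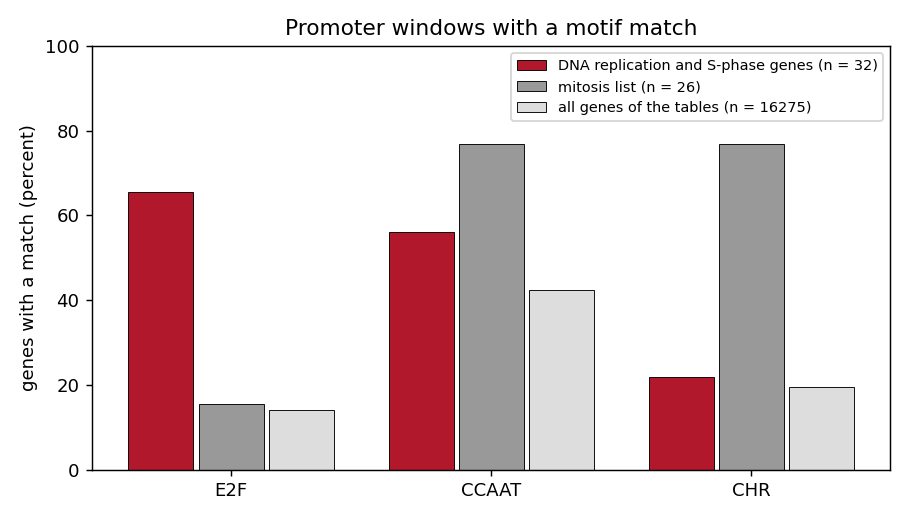
Percent of genes with at least 1 match to the E2F core, the CCAAT box or the CHR element in the 300-base RefSeq window, for the replication genes (n = 32), the mitosis list (n = 26) and all genes of the tables (n = 16275). The E2F core is in 65.6% of the replication genes and 15.4% of the mitosis genes, and CHR is in 21.9% and 76.9%.

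The 250 bases before the start given in the RefSeq promoter table are shown for 3 pairs of genes, 5′ to 3′ on the strand of the gene, with each E2F match in capitals. Mcm6 and Mcm5 are shown because they had the smallest and the largest difference of the helicase genes. Rrm2 and Rrm1 are shown because the subunits of ribonucleotide reductase differed from each other between the groups. Prim1 and Cdc6 are shown as a gene that kept its group difference across replicates and the gene whose HepLPC replicates differed most. That start can lie inside the gene's outer bounds: the Mcm5 window runs past the outer start of the gene, and the Cdc6 window lies wholly inside the gene, as does that of E2f1, which held no E2F match and is not shown. The Mcm6 window is chr1:128359706-128359955 on the minus strand. The other windows are on the plus strand, at chr8:75109259-75109508 for Mcm5, chr12:24708004-24708253 for Rrm2, chr7:102441445-102441694 for Rrm1, chr10:128014965-128015214 for Prim1 and chr11:98907901-98908150 for Cdc6. In Mcm6 the capitals form the run TTGGCGCGAA at 2 places, where a match on each strand overlaps.
Mcm6: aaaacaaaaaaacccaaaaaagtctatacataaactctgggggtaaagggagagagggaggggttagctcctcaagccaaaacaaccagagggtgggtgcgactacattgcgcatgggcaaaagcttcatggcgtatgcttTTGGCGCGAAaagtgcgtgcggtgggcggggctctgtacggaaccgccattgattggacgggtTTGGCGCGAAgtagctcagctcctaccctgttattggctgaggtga
Mcm5: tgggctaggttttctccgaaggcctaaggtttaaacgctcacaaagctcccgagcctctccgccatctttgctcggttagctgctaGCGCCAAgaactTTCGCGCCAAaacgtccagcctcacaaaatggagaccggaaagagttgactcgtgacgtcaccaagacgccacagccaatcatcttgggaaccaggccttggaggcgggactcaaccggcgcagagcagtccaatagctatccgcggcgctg
Rrm2: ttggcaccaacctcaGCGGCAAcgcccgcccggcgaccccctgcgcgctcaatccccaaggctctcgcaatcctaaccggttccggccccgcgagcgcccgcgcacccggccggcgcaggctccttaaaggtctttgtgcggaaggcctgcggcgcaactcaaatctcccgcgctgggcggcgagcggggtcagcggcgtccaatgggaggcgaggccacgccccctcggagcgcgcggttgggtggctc
Rrm1: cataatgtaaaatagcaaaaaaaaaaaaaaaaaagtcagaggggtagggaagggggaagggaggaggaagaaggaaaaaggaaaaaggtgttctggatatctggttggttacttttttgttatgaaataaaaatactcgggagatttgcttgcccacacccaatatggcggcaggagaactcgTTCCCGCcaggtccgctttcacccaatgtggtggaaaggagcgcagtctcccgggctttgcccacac
Prim1: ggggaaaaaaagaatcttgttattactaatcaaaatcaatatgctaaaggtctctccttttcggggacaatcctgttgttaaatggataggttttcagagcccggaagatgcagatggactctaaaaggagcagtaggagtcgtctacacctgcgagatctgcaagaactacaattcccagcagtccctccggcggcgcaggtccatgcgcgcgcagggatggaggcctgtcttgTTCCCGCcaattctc
Cdc6: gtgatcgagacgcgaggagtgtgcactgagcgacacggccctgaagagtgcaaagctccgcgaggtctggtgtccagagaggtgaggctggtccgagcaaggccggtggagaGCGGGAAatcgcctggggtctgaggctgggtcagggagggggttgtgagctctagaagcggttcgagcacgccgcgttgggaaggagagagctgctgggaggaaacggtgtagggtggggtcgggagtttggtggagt

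Gene positions in brackets below are those of RefSeq on GRCm38.p6, the assembly known as mm10. The MCM2-7 helicase genes summed to 1238 and 843 CPM in HepLPC, against 465 and 759.9 CPM in NPC_LPC. The 6 encoded proteins form 1 hexameric ring that unwinds DNA. Mcm5 (chromosome 8, 75109468 to 75128439) had the largest difference of the 6, at 174 and 105 CPM in HepLPC, against 40.4 and 79.6 CPM in NPC_LPC (difference 1.21 ± 0.42, edgeR adjusted p = 0.185). Mcm7 was at 246 and 230.1 CPM in HepLPC, against 93.8 and 155 CPM in NPC_LPC (difference 0.93 ± 0.31, adjusted p = 0.172). In both genes the groups did not overlap, and the HepLPC libraries were close to each other for Mcm7 and apart for Mcm5. Mcm3 and Mcm4 also did not overlap but by a narrow gap, with Mcm3 at 213 and 126 CPM in HepLPC, against 79.8 and 118 CPM in NPC_LPC. Mcm4 was at 217 and 139.7 CPM in HepLPC, against 96.1 and 132 CPM in NPC_LPC. Mcm2 and Mcm6 overlapped, since NPC_LPC replicate 2 lay above HepLPC replicate 2. Mcm2 was at 202 and 120.1 CPM in HepLPC, against 74.1 and 135 CPM in NPC_LPC, and Mcm6 at 186 and 123 CPM in HepLPC, against 81.3 and 141 CPM in NPC_LPC with the smallest difference of the 6 (difference 0.48 ± 0.36). None of the 6 passed edgeR or DESeq2, and the log2 fold changes lay between 0.48 and 1.21.

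Per transcript length the 6 helicase genes lay within 3-fold of each other in each library. In FPKM, the authors' scaling by length, Mcm7 was the highest of the 6 in every library, at 63.9 and 64.6 FPKM in HepLPC, against 24.1 and 40.9 FPKM in NPC_LPC. The lowest was Mcm6 in HepLPC, at 34.3 and 21.7 FPKM, and Mcm5 in NPC_LPC, at 10.2 and 20.4 FPKM. The highest was 1.86 and 2.98 times the lowest in HepLPC and 2.37 and 2.01 times in NPC_LPC. The proteins stand in equal number in the ring, and these RNA levels were not equal.

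Origin licensing genes summed to 207 and 147 CPM in HepLPC, against 87.2 and 114 CPM in NPC_LPC. Cdt1, which brings MCM2-7 to origins (chromosome 8, 122568015 to 122573130), was at 51.4 and 48.1 CPM in HepLPC, against 25.6 and 22.2 CPM in NPC_LPC, with little spread inside either group. It was 2.08-fold higher in HepLPC by group mean (difference 1.06 ± 0.26, edgeR adjusted p = 0.109; DESeq2 adjusted p = 0.0152). Cdt1 did not follow the usual order, since NPC_LPC replicate 2 was its lowest library. Cdc6, the ATPase that loads the helicase with Cdt1, was at 63.1 and 25.2 CPM in HepLPC, against 13.9 and 31.5 CPM in NPC_LPC, and its replicates differed 2.50-fold in HepLPC and 2.26-fold in NPC_LPC. That within-group spread exceeded the 1.94-fold difference between group means (difference 0.96 ± 0.58, adjusted p = 0.382). Gmnn encodes geminin, the inhibitor of Cdt1, and was at 25.8 and 25.2 CPM in HepLPC, against 12.2 and 17.6 CPM in NPC_LPC, with no overlap (difference 0.78 ± 0.33). Orc6 was at 56.96 and 38.9 CPM in HepLPC, against 29.03 and 31.9 CPM in NPC_LPC, also with no overlap. Orc1, the large subunit of the origin recognition complex, was the lowest of the 5 by CPM and by FPKM in every library, at 9.89 and 9.69 CPM in HepLPC, against 6.48 and 10.5 CPM in NPC_LPC, with overlapping groups (difference 0.21 ± 0.42, and -0.075 without NPC_LPC replicate 1). Cdt1 was the only one of the 5 with an unadjusted edgeR p under 0.05.

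Genes of helicase activation summed to 196 and 138 CPM in HepLPC, against 70.9 and 129 CPM in NPC_LPC and included the gene with the largest difference of all 41. Gins1 (chromosome 2, 150909556 to 150931280), a subunit of the GINS complex, was at 23.3 and 17.4 CPM in HepLPC, against 4.50 and 9.76 CPM in NPC_LPC, 2.86-fold higher in HepLPC by group mean (difference 1.51 ± 0.48, edgeR adjusted p = 0.164; DESeq2 adjusted p = 0.0380). Its partner Gins3 was at 7.45 and 4.51 CPM in HepLPC, against 4.72 and 9.71 CPM in NPC_LPC, with overlapping groups (difference -0.27 ± 0.55). Gins3 had the lowest mean CPM of the 41 genes, while by FPKM, which accounts for length, E2f2 was the lowest in every library. The sign of Gins3 changed when HepLPC replicate 2 (0.044) or NPC_LPC replicate 2 (0.34) was left out. Gins4 was at 45.6 and 38.5 CPM in HepLPC, against 22.4 and 26.5 CPM in NPC_LPC, with steady values inside each group (difference 0.78 ± 0.27, adjusted p = 0.184). Gins2 was at 23.7 and 24.2 CPM in HepLPC, against 11.7 and 22.5 CPM in NPC_LPC, where NPC_LPC replicate 1 alone was low and the gap between the groups was narrow. The 4 GINS proteins form 1 complex, and their RNA differences ran from -0.27 to 1.51. Cdc45, which joins GINS on the helicase, was at 29.9 and 21.2 CPM in HepLPC, against 9.93 and 25.1 CPM in NPC_LPC, and Mcm10, a factor needed to start unwinding, at 66.5 and 32.5 CPM in HepLPC, against 17.6 and 35.6 CPM in NPC_LPC. Both had overlapping groups, and neither passed a test (adjusted p = 0.558 and 0.344 with edgeR).

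The sliding clamp gene Pcna (chromosome 2, 132249286 to 132253180) was at 240.1 and 177 CPM in HepLPC, against 109 and 137 CPM in NPC_LPC, with no overlap (difference 0.77 ± 0.27, edgeR adjusted p = 0.190). PCNA encircles DNA and holds the polymerases on it. The RFC proteins open and load that ring. Rfc2 was steady inside each group, at 61.6 and 58.2 CPM in HepLPC, against 32.1 and 36.9 CPM in NPC_LPC (difference 0.80 ± 0.24, adjusted p = 0.155 with edgeR and 0.0743 with DESeq2). Rfc4, the lowest loader gene by CPM and by FPKM in every library, was at 16.6 and 11.5 CPM in HepLPC, against 4.50 and 7.63 CPM in NPC_LPC (difference 1.21 ± 0.45). Rfc3 was at 23.1 and 20.5 CPM in HepLPC, against 10.3 and 17.9 CPM in NPC_LPC, and Rfc5 at 43.9 and 26.3 CPM in HepLPC, against 13.3 and 26.8 CPM in NPC_LPC, the only one of these 5 whose groups overlapped. The order of the libraries was the same at both ends for all 5, with HepLPC replicate 1 highest and NPC_LPC replicate 1 lowest. None of the 5 passed edgeR or DESeq2.

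Primase makes the RNA primer that starts each strand, and its catalytic subunit gene Prim1 (chromosome 10, 128015215 to 128030030) differed more than that of its partner. Prim1 was at 64.3 and 43.00 CPM in HepLPC, against 21.5 and 25.3 CPM in NPC_LPC, 2.30-fold higher in HepLPC by group mean (difference 1.20 ± 0.31, edgeR adjusted p = 0.119; DESeq2 adjusted p = 0.0174). Prim2, the large regulatory subunit, was at 50.3 and 28.3 CPM in HepLPC, against 20.8 and 30.7 CPM in NPC_LPC, with overlapping groups (difference 0.61 ± 0.39). The catalytic subunit gene of polymerase alpha, Pola1, was at 73.5 and 32.01 CPM in HepLPC, against 28.6 and 47.3 CPM in NPC_LPC, and here HepLPC replicate 2 resembled NPC_LPC replicate 1. Leaving out HepLPC replicate 1 turned its sign (log2 fold change -0.23, against 0.47 with all libraries). Pola2, its second subunit, was at 82.97 and 90.6 CPM in HepLPC, against 63.4 and 59.9 CPM in NPC_LPC, with replicates close to each other and no overlap (difference 0.49 ± 0.22). Pole, the catalytic subunit of the leading-strand polymerase epsilon, was at 160.1 and 88.1 CPM in HepLPC, against 44.8 and 92.4 CPM in NPC_LPC, and its small subunit gene Pole2 at 18.7 and 14.4 CPM in HepLPC, against 6.26 and 9.81 CPM in NPC_LPC (difference 1.04 ± 0.40). Pold1, the catalytic subunit of polymerase delta, was at 43.8 and 42.2 CPM in HepLPC, against 25.7 and 37.5 CPM in NPC_LPC. The groups overlapped for Pole and not for Pole2 and Pold1.

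Okazaki fragments, the short pieces of the lagging strand, are trimmed by the Fen1 nuclease and joined by DNA ligase 1. Fen1 was at 60.9 and 77.7 CPM in HepLPC, against 32.3 and 47.7 CPM in NPC_LPC, with HepLPC replicate 2 as its highest library (difference 0.79 ± 0.30). Lig1 was at 116 and 73.5 CPM in HepLPC, against 41.8 and 67.8 CPM in NPC_LPC, a narrow gap between HepLPC replicate 2 and NPC_LPC replicate 2 (difference 0.79 ± 0.36). Both had groups that did not overlap, and neither passed edgeR or DESeq2.

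Nucleotide synthesis genes summed to 962 and 751 CPM in HepLPC, against 370.0 and 614 CPM in NPC_LPC. By FPKM, which accounts for length, they summed to 347 and 281 FPKM in HepLPC, against 117 and 199 FPKM in NPC_LPC, above the helicase genes in every library. Rrm2 (chromosome 12, 24708254 to 24714146) encodes the small subunit of ribonucleotide reductase, the S-phase-regulated part of the enzyme that makes deoxynucleotides. It was at 461 and 420.4 CPM in HepLPC, against 144 and 226 CPM in NPC_LPC, 2.38-fold higher in HepLPC by group mean (difference 1.25 ± 0.30, edgeR adjusted p = 0.109). DESeq2 gave it an adjusted p of 0.00444, the smallest of the 41. Rrm1, the large subunit, was at 358 and 238 CPM in HepLPC, against 173 and 292 CPM in NPC_LPC, with overlapping groups (difference 0.36 ± 0.36, edgeR adjusted p = 0.593). The S-phase thymidine enzymes showed the common order: thymidylate synthase Tyms was at 89.97 and 60.02 CPM in HepLPC, against 37.3 and 59.3 CPM in NPC_LPC, and the replicates numbered 2 were nearly equal. Thymidine kinase Tk1 was at 53.4 and 32.7 CPM in HepLPC, against 15.8 and 36.3 CPM in NPC_LPC, with overlapping groups and replicates 1.63-fold and 2.29-fold apart.

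E2f1 had its groups in the opposite order to most of the set. The gene (chromosome 2, 154559400 to 154569892), an activating E2F factor, was at 42.3 and 27.4 CPM in HepLPC, against 48.95 and 48.2 CPM in NPC_LPC, and it was the only one of the 41 genes with both HepLPC libraries below both NPC_LPC libraries. The difference did not pass a test (difference -0.48 ± 0.30, edgeR adjusted p = 0.404; DESeq2 adjusted p = 0.482). As a share of the summed CPM of the 41 genes, E2f1 took 1.05 and 0.947% in HepLPC, against 2.95 and 1.90% in NPC_LPC. E2f2, a related activator, was at 10.3 and 10.5 CPM in HepLPC, against 3.02 and 7.13 CPM in NPC_LPC, with HepLPC higher and no overlap (difference 1.04 ± 0.53). The E-type cyclins, which switch on the kinase Cdk2 at the entry to S phase, overlapped between groups. Ccne1 was at 61.3 and 29.8 CPM in HepLPC, against 25.7 and 39.3 CPM in NPC_LPC and Ccne2 at 44.1 and 26.3 CPM in HepLPC, against 19.98 and 42.4 CPM in NPC_LPC, with log2 fold changes of 0.49 and 0.18. Both changed sign without HepLPC replicate 1, at -0.11 and -0.23, and Ccne2 also did without NPC_LPC replicate 1, at -0.25. These 4 genes summed to 158 and 94.1 CPM in HepLPC, against 97.7 and 137 CPM in NPC_LPC, and here NPC_LPC replicate 2 exceeded HepLPC replicate 2.

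Chromatin assembly factor 1 places histones behind the fork. Its large subunit gene Chaf1a was at 118 and 80.03 CPM in HepLPC, against 58.7 and 84.4 CPM in NPC_LPC, and Chaf1b at 109 and 61.7 CPM in HepLPC, against 55.5 and 58.6 CPM in NPC_LPC. HepLPC replicate 1 was well above the other libraries in both, and neither passed a test (edgeR adjusted p = 0.423 and 0.353).

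**Figure D4:**
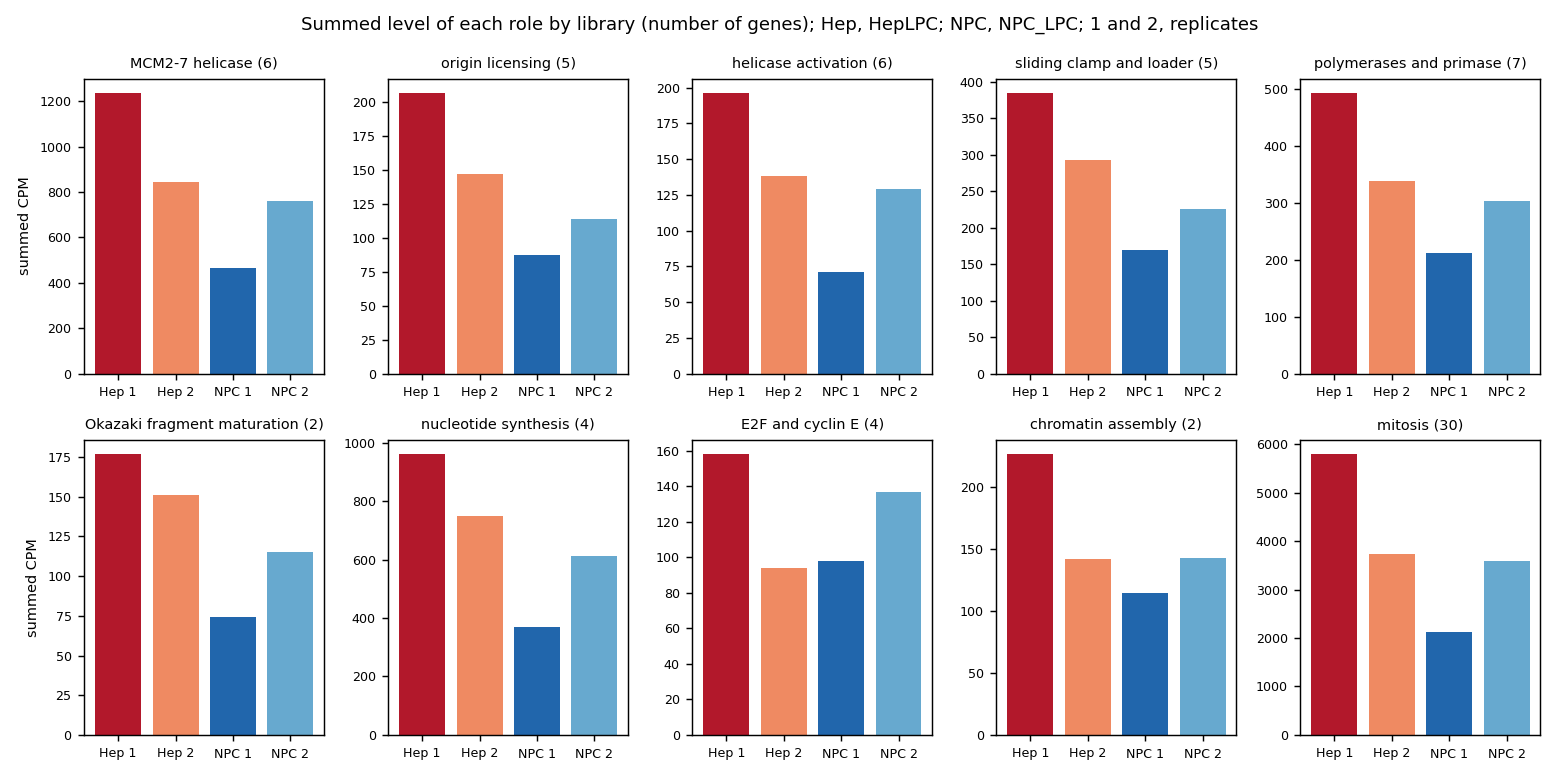
Summed CPM of the genes of each role in each library, with the number of genes in brackets and each axis starting at 0, for the 9 roles and the mitosis list. HepLPC replicate 1 is the tallest bar in every panel; NPC_LPC replicate 1 is the shortest in all but the panel of E2F and cyclin E, where HepLPC replicate 2 is.

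Partner genes were compared inside each library, where the scaling between libraries cancels. The 13 ratios were chosen after the values were seen, as pairs from 1 complex or step, and are given without a test, since 2 libraries against 2 cannot go below p = 0.333 in an exact permutation test. In 5 of the 13 the groups did not overlap, by FPKM and by counts alike. No share over other gene pairs was computed to set beside that count, so it is a description of these pairs alone. Rrm2 and Rrm1, Mcm5 and Mcm6, Gins1 and Gins3, and E2f2 and E2f1 had the largest and the smallest difference of their role. Pairs picked that way tend to separate by group, so the count does not show that partner ratios differ between the groups. Rrm2 over Rrm1 was 2.82 and 3.94 in HepLPC, against 1.78 and 1.68 in NPC_LPC, in FPKM. Prim1 over Prim2 was 3.50 and 4.11 in HepLPC, against 2.58 and 2.28 in NPC_LPC. In both pairs the HepLPC ratios were higher. Gins1 over Gins3 was 5.19 and 5.84 in HepLPC, against 1.47 and 1.58 in NPC_LPC, and Mcm5 over Mcm6 was 1.27 and 1.27 in HepLPC, against 0.719 and 0.788 in NPC_LPC. Replicates were close in these last pairs, although the genes themselves varied between replicates. E2f2 over E2f1 was 0.0923 and 0.155 in HepLPC, against 0.0219 and 0.0548 in NPC_LPC. The other 8 ratios overlapped between groups, and those with the widest range were Cdc6 over Cdt1, at 0.369 and 0.148 in HepLPC, against 0.159 and 0.442 in NPC_LPC, and Pola2 over Pola1, at 0.672 and 2.25 in HepLPC, against 1.51 and 0.767 in NPC_LPC. In both pairs each group held 1 high and 1 low library.

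**Figure D5:**
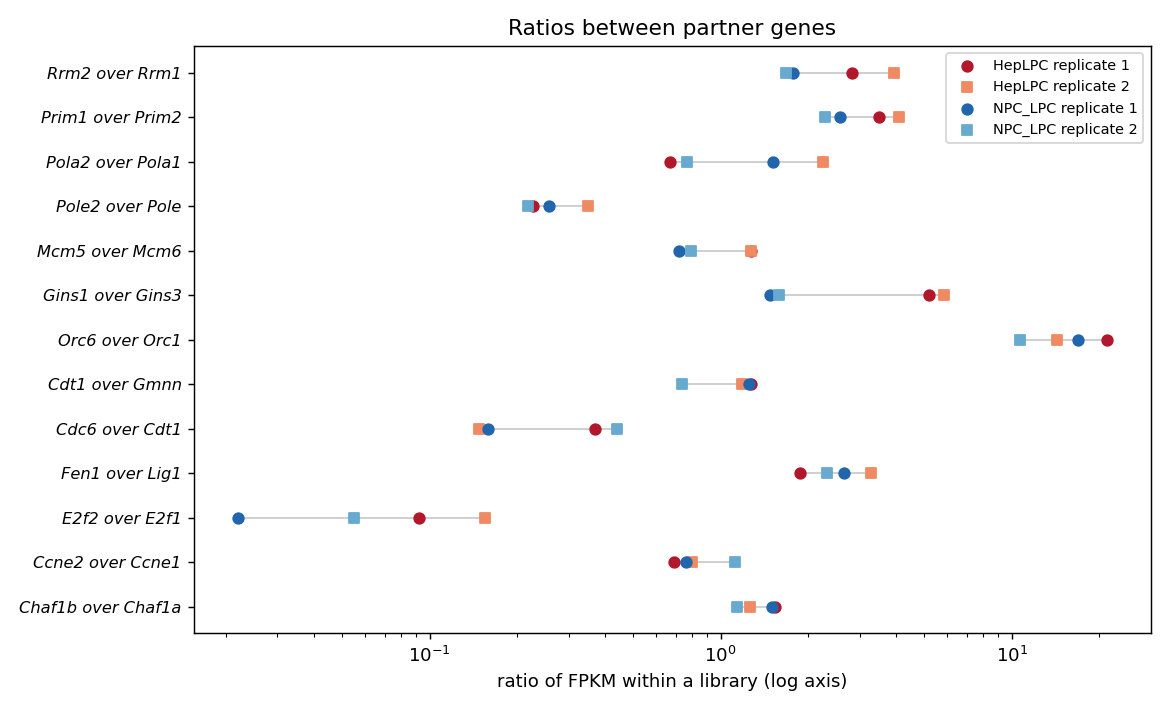
Ratio of FPKM between partner genes within each library, on a log axis, with 1 point per library and a grey line over the range. The HepLPC points lie to the right of the NPC_LPC points for Rrm2 over Rrm1, Prim1 over Prim2, Mcm5 over Mcm6, Gins1 over Gins3 and E2f2 over E2f1.

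Genes of mitosis followed the same order of libraries in sum. The 30 mitosis genes summed to 5802 and 3739.6 CPM in HepLPC, against 2135 and 3589.9 CPM in NPC_LPC. The summed CPM of the 41 replication genes was 0.697 and 0.775 times that of the mitosis list in HepLPC, against 0.777 and 0.708 times in NPC_LPC. These ratios overlap, and the log2 ratio of the group means was -0.013, with a pooled SD of 0.10 between replicates. All 30 mitosis genes had a log2 fold change above 0, with a median of 0.78. EdgeR called 0 of them, 14 of the 30 had an unadjusted p under 0.05, against 21.9% of all genes, DESeq2 called 4 higher, against 5.35%, and limma-voom 0. The smallest p belonged to Ccnb1, the cyclin that drives entry to mitosis, at 85.3 and 87.5 CPM in HepLPC, against 37.2 and 39.6 CPM in NPC_LPC (edgeR adjusted p = 0.0828), and to the spindle checkpoint gene Mad2l1, at 223 and 150.1 CPM in HepLPC, against 73.3 and 82.8 CPM in NPC_LPC.

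Further genes of the replication pathway, none of them among the 41, were mostly higher in HepLPC without passing edgeR, which called 0 in each of the following lists, as did limma-voom. Of 30 other replication machinery genes, 28 were above 0 with a median difference of 0.57. An unadjusted p under 0.05 was found in 4, a smaller share than the 21.9% of all genes, and DESeq2 called 2 higher, near the 5.35% of all genes. The treslin partner Mtbp, needed to fire origins, was at 97.3 and 81.3 CPM in HepLPC, against 25.2 and 28.3 CPM in NPC_LPC (difference 1.74 ± 0.25, edgeR adjusted p = 0.0580; DESeq2 adjusted p = 2.43e-06). The helicase gene Recql4 was at 17.7 and 20.7 CPM in HepLPC, against 6.20 and 7.73 CPM in NPC_LPC (edgeR adjusted p = 0.107; DESeq2 adjusted p = 0.00736). In both genes the libraries of a group were close and the groups did not overlap. Of 18 genes of fork protection and the S-phase checkpoint, 16 were above 0, with a median of 0.62. An unadjusted p under 0.05 was found in 2, a smaller share than the 21.9% of all genes, and DESeq2 called 1 higher, near 5.35%. Between the replicates numbered 2, HepLPC was higher in 6 of the 18, against 6081 of all 12332 tested genes. The gene that DESeq2 called was Timeless, a component of the fork protection complex, at 65.9 and 59.2 CPM in HepLPC, against 23.2 and 25.8 CPM in NPC_LPC (edgeR adjusted p = 0.0803; DESeq2 adjusted p = 0.000547). The checkpoint kinase Chek1 was at 32.6 and 18.5 CPM in HepLPC, against 9.28 and 12.1 CPM in NPC_LPC.

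Nucleotide metabolism outside the set had 16 of 19 genes above 0, a median difference of 0.69, 7 with an unadjusted p under 0.05, against 21.9% of all genes, and 3 that DESeq2 called higher, against 5.35%. The mitochondrial folate enzymes Mthfd2 and Shmt2 had the smallest p of the list. Mthfd2 was at 104 and 104 CPM in HepLPC, against 30.95 and 35.4 CPM in NPC_LPC (difference 1.65 ± 0.23, edgeR adjusted p = 0.0570; DESeq2 adjusted p = 2.24e-06). Shmt2 was at 407 and 506 CPM in HepLPC, against 138 and 185 CPM in NPC_LPC (difference 1.498 ± 0.28, edgeR adjusted p = 0.0811; DESeq2 adjusted p = 9.51e-05). In both genes HepLPC replicate 1 did not exceed replicate 2, unlike most of the S-phase set. Among 14 other genes of replication-coupled chromatin, 10 were above 0, with a median of 0.57. An unadjusted p under 0.05 was found in 3, near the 21.9% of all genes, and DESeq2 called 2 higher, against 5.35% of all genes. These 2 were the remodeller Hells, at 251 and 176 CPM in HepLPC, against 87.9 and 85.7 CPM in NPC_LPC, and the histone chaperone Nasp, at 181 and 179.6 CPM in HepLPC, against 96.4 and 112 CPM in NPC_LPC (edgeR adjusted p = 0.0862 and 0.139).

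The rest of the E2F pathway was divided, with 17 of 23 genes above 0, a median difference of 0.39, 1 with an unadjusted p under 0.05, a smaller share than the 21.9% of all genes, and 0 called by DESeq2. Cyclin A2 (Ccna2), a target of E2F that acts in S phase, was at 267 and 185 CPM in HepLPC, against 79.2 and 152 CPM in NPC_LPC (difference 0.97 ± 0.39), and the ubiquitin ligase subunit Skp2 at 50.1 and 34.3 CPM in HepLPC, against 16.1 and 30.02 CPM in NPC_LPC. The retinoblastoma gene Rb1, named after its values were seen, was among the 6 genes below 0, at 18.8 and 25.7 CPM in HepLPC, against 34.4 and 32.00 CPM in NPC_LPC (difference -0.58 ± 0.30, edgeR adjusted p = 0.315). Like E2f1 it had both HepLPC libraries below both NPC_LPC libraries. The repressor E2f7, also named after its values were seen, was at 40.9 and 20.97 CPM in HepLPC, against 9.001 and 37.3 CPM in NPC_LPC, a 4.14-fold difference between the NPC_LPC replicates.

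The genes lie on many chromosomes, with 6 on chromosome 8 and 6 on chromosome 5. Chromosomes differed in their median: the median log2 fold change of tested genes was -0.61 on chromosome 4 (727 genes), -0.42 on chromosome 14 and 0.65 on chromosome 15. None of the 41 lies on chromosome 14 or 15. Orc1, E2f2 and Ccne2 lie on chromosome 4, and their log2 fold changes of 0.21, 1.04 and 0.18 stand against that chromosome's median of -0.61. On the other chromosomes with a member the medians ran from -0.12 to 0.24. Set against the median of its own chromosome, the difference stayed above 0 for 39 of the 41 genes, with a median of 0.68.

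Counting leaves some values uncertain. In the GENCODE annotation of the same assembly, 10 of the 41 genes (Ccne2, Chaf1a, Fen1, Gins2, Mcm7, Orc6, Rfc2, Rfc4, Rfc5 and Tk1) have exons that overlap those of another counted gene on the opposite strand. Counted genes were matched by symbol, and with any GENCODE gene 15 of the 41 have an exon overlap. Cdc45, Lig1, Orc1, Pole and Pole2 overlap only genes whose symbols are not among the counted ones, for Pole2 on the same strand. The library kit keeps the strand, but the strand setting of the counting is not given in the sources used here. Pcna and Tyms have annotated processed copies, so some of their reads may have more than 1 place in the genome.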

How the data were processed

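RNA was sequenced in 4 libraries, 2 HepLPC and 2 NPC_LPC, grouped by title, since the cell type label of HepLPC names both sources. The submitters' processing notes name HISAT2, HTSeq, Cufflinks, Trimmomatic and DESeq and the build mm10, without versions or annotation. Per the file headers, the authors deposited read counts per gene and FPKM (scaled by transcript length and library size). Counts gave all main results, and FPKM gave comparisons of level between genes, where stated, and alternatives.

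Counts were fitted in R 4.3.3 with edgeR 4.0.16 (quasi-likelihood test, TMM, filterByExpr, 12332 genes, group as the only term, two-sided, Benjamini-Hochberg, threshold 0.05). Standard errors were derived from the F statistic. CPM use the library totals of tested genes times TMM factors of 0.98 to 1.02. A count of 3, used as a floor, equals 0.149 to 0.169 CPM and covers counting error only. Total counts per library were 18123118 and 17575998 for HepLPC and 17919947 and 20625957 for NPC_LPC. Alternatives were other scalings and filters, DESeq2 1.42.0, limma-voom (limma 3.58.1), a replicate block, leaving out each library, and limma on log2 FPKM. The fit was tested on simulated data. There edgeR recovered 3% of 2-fold changes and 100% of 8-fold changes, and DESeq2 recovered 6% and 99%. A gene that was not called is therefore not shown to be unchanged.

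The genes, lists and tests were chosen with earlier results of these data known. All 41 genes are named, and of each other list the 2 genes with the smallest edgeR p, with any exception stated. The 27 rows with symbols turned into dates were kept in the totals.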

Additional observations from a re-analysis of the deposited data

How the results depend on the processing

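With edgeR the number of genes called between the origins was 53, and it was 593 with no filter on low counts, 1521 with DESeq2, 5 with limma-voom, 114 with limma on log2(FPKM + 1) at a mean FPKM of at least 1, and 0 with no filter on FPKM. Leaving out 1 library gave 0 to 377 genes. The correlation of same-numbered deviations over tested genes was -0.046, which cannot tell whether the libraries were prepared in pairs. With the replicate number as a block 136 genes and 0 replication genes were called. Replication genes called higher numbered 4 with DESeq2 and 0 under every other alternative, and 0 were called lower under any. Between 36 and 40 replication genes had a fold change above 0 under the alternatives run. The number not overlapping with HepLPC higher was 24 to 26 with all libraries. With 1 library left out it was 24 to 39, where 1 library against 2 separates more easily. The log2 ratio of the summed level was 0.47 to 1.06 when 1 library was left out. Signs turned, always on leaving out 1 library, for Pola1 (range -0.23 to 0.95), Ccne1 (-0.11 to 0.91), Ccne2 (-0.25 to 0.82), Gins3 (-0.68 to 0.34) and Orc1 (-0.075 to 0.60). Ccne2 turned without HepLPC replicate 1 and without NPC_LPC replicate 1, at -0.23 and -0.25. Gins3 turned without HepLPC replicate 2 and without NPC_LPC replicate 2, at 0.044 and 0.34. Beside these 7 reversals, 561 values of single genes under the alternatives kept their direction and side of the threshold and 4 passed it, all with DESeq2. The cause was not tested. The lowest count of a replication gene in any library was 55, for E2f2 in NPC_LPC replicate 1, and with 2 libraries a group the spread between replicates rests on few values.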
